A study of Arabidopsis thaliana with 20 samples.

Results

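Loss of EIN2 was followed in seedlings that carried a mutant allele of LHP1 and had been warmed to 27 °C. The comparison took, by genotype and temperature in the labels, the 2 libraries of the double mutant ein2-5lhp1-3 (ein2 lhp1) and the 2 libraries of the single mutant lhp1-3 (lhp1), which is 4 of the 20 libraries of the series. Poly(A) RNA of whole Arabidopsis thaliana seedlings was sequenced for 5 genotypes (ein2-5lhp1-3, lhp1-3, ein2-5, ein3-1eil1-1 and Col-0) at 2 temperatures, with 2 replicates in each group. Plants were raised in short days (SD) at 21 °C on medium with sucrose, and warmed groups spent 4 h at 27 °C, from ZT4 to ZT8, at an age of 5 days. Both groups compared here therefore carry the lhp1-3 allele and both received the warming. Double mutant libraries at 21 °C against lhp1 at 21 °C, and ein2 against Col-0 at 27 °C, served to test where the effect of EIN2 loss differed. Libraries of ein3 eil1, which lacks the transcription factors acting below EIN2, are quoted beside some of these values. Nothing in the labels says whether 2 replicates were separate batches of plants. The p-values therefore measure the spread between replicate libraries, taken over all 20 libraries, which may be technical.

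Ethylene is perceived by receptors in the endoplasmic reticulum that, without the hormone, keep the kinase CTR1 active, and CTR1 in turn holds back EIN2. When ethylene binds, a fragment of EIN2 reaches the nucleus, the transcription factors EIN3 and EIL1 accumulate, and their targets include genes for receptors and for the F-box proteins that degrade EIN3, a negative feedback. LHP1, also named TFL2, is a chromodomain protein that reads the Polycomb mark H3K27me3, and floral regulators are silenced through it in seedlings. Levels are given as CPM, read counts brought to a common library total with TMM scaling, in replicate order (replicate 1, then replicate 2). Fold changes are log2 values of ein2 lhp1 over lhp1 with their standard errors, and a gene was called when its adjusted p (edgeR's quasi-likelihood test, Benjamini-Hochberg over 21987 genes) was under 0.05.

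The mutated gene separated the groups. EIN2 stood at 26.3 and 25.9 CPM in ein2 lhp1 libraries, against 75.9 and 84.4 CPM in lhp1 libraries, and fell by 1.62 ± 0.068 on the log2 scale (adjusted p = 6.04e-33). The transcript was lower but not absent in both double mutant libraries. LHP1 (TFL2), mutated in both groups, had 8.13 and 7.67 CPM in ein2 lhp1, against 8.09 and 6.71 CPM in lhp1, and was not called (adjusted p = 0.715). SEP3, a floral gene that Polycomb proteins silence in seedlings, had 29.7 and 28.4 CPM in ein2 lhp1, against 34.2 and 32.8 CPM in lhp1, and averaged 0.684 CPM in Col-0 at 27 °C. SEP3 was not called between ein2 lhp1 and lhp1 (adjusted p = 0.154).

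In all, 7574 of 21987 genes tested (34.4%) were called. Of these, 4081 (18.6%) were higher and 3493 (15.9%) were lower in ein2 lhp1, with a median size of 0.42 log2 units among called genes. A change of at least 1 log2 unit was reached by 678 higher genes (3.08%) and 431 lower genes (1.96%), which is 1109 genes (5.04%) in all. Over all genes tested the median log2 fold change was -0.008. Most changes were thus small, and the counts of list members below are to be read against these shares. With 2 libraries against 2, the groups did not overlap in 14192 genes (64.5%), so a gap between groups was the common case. In whole seedlings, fewer cells of a type and less RNA per cell cannot be told apart.

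Total counts were 24445082 and 32048866 in ein2 lhp1, against 42625800 and 27865315 in lhp1. Genes annotated as ribosomal RNA took 2.80% and 3.05% of the counts in ein2 lhp1, against 1.59% and 1.98% in lhp1. A further gene of the ribosomal RNA region, AT3G06365, took 9.12% and 9.56% in ein2 lhp1, against 5.35% and 6.81% in lhp1. The part of these genes in the results was not tested beyond rescaling without them. Fold changes varied with gene length, with medians of 0.18, 0.03, -0.04 and -0.15 in 4 equal sets of genes ordered from short to long. With the trend on length removed, 6608 genes were called, of which 5589 were called the same way in both fits. Among abundant genes the 2 ein2 lhp1 libraries at 27 °C differed more from each other than those of any other group, with a variance-to-mean ratio of 9.95, where the other groups had 3.19 to 5.69. The p-values rest on a spread shared by all 10 groups, which is not specific to these 2 libraries. For EIN2 the adjusted p of edgeR's test was 6.04e-33 in that fit and 3.97e-15 from the 4 libraries compared alone.

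**Figure D1:**
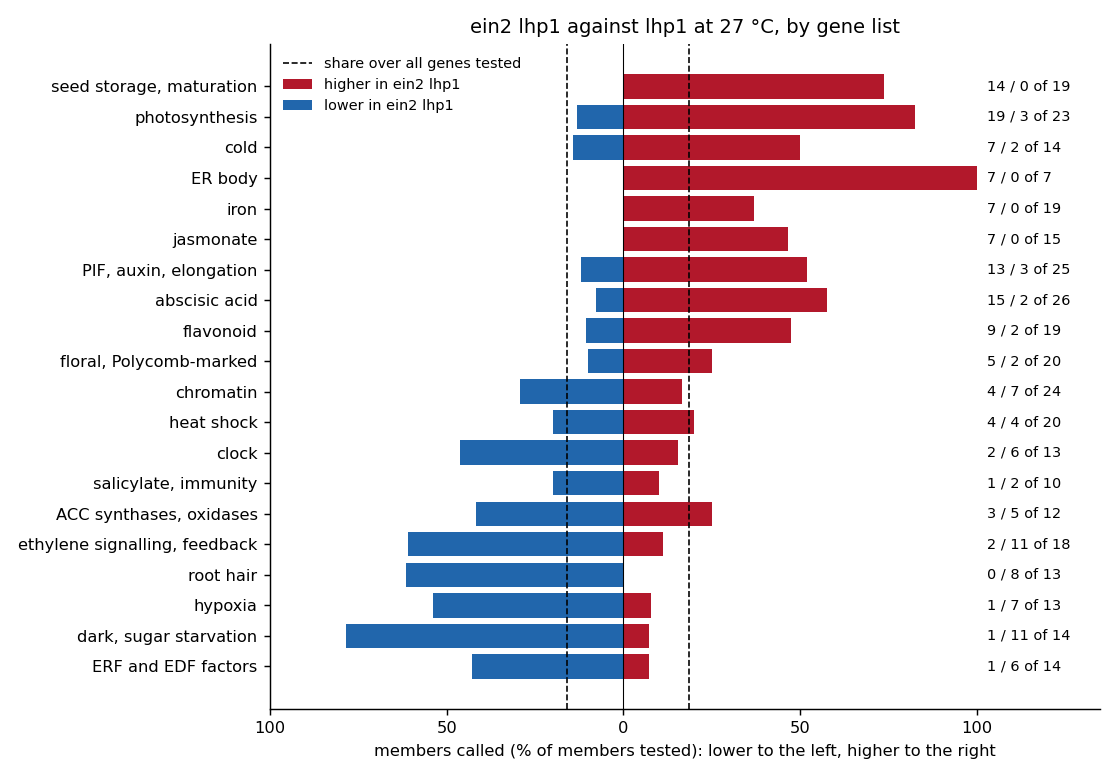
For 20 of the 21 lists, leaving out the one with 2 genes tested, each bar gives the members called in ein2 lhp1 against lhp1 at 27 °C, as a percentage of the members tested, with higher genes to the right in red and lower genes to the left in blue. Dashed lines mark the 18.6% higher and 15.9% lower over all genes, and the numbers at the right are genes higher, genes lower and genes tested. Seed and photosynthesis genes stood mostly to the right and ethylene feedback, root hair and starvation genes to the left.

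Most genes of the ethylene pathway that were called were lower. Of 18 genes for receptors, CTR1, EIN3-type factors and feedback proteins, 11 fell, 2 rose and 5 were not called, with a median of -0.33. Those that fell by at least 1 log2 unit were ARL, ETR2, ARGOS, EBF2, ERS1 and the sparsely counted EIL2. Upstream sequences of 3 of them are shown because ethylene output runs through the DNA-binding factor EIN3. Each is the 250 bases before the gene's start in the RefSeq TAIR10.1 genome, read 5′ to 3′ on the gene's strand, with the EIN3 core TACAT in capitals. On the other strand the core reads ATGTA. They lie at chr3:8254309-8254558 (plus strand) for ETR2, chr5:8797350-8797599 (minus strand) for EBF2 and chr2:18236539-18236788 (plus strand) for ARL.
ETR2: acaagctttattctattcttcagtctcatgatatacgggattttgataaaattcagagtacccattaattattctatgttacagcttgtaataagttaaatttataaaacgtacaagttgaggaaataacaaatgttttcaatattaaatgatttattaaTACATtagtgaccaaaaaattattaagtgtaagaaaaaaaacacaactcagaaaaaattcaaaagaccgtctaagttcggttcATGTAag
EBF2: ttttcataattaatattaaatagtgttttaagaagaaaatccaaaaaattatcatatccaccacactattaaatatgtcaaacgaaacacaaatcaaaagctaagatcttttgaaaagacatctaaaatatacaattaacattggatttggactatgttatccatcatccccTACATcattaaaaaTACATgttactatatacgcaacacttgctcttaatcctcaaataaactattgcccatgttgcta
ARL: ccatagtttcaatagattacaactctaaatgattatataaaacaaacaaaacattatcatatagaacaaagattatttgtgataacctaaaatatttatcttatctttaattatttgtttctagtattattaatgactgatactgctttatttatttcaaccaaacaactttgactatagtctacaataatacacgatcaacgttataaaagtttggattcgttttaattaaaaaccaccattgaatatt
ETR2 and EBF2 held 2 matches each and ARL held 0. The core is common, since 52.0% of 27443 promoters of this length held it, as did 6 of the 11 genes of this list that fell. A match is a description of letters in this window and not a binding site.

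ETR2, an ethylene receptor, had 1.39 and 1.59 CPM in ein2 lhp1, against 15.3 and 13.8 CPM in lhp1, and fell by 3.28 ± 0.20 (adjusted p = 1.33e-23). ARL, an ARGOS-like protein of the endoplasmic reticulum, had 0.574 and 1.01 CPM in ein2 lhp1, against 13.8 and 14.6 CPM in lhp1, and fell by 4.11 ± 0.22 (adjusted p = 5.1e-27). The ein2 lhp1 libraries were the low ones in both genes, and for ARL, one of the 10 largest decreases, groups that do not overlap were a condition of that choice. EBF2, an F-box protein that targets EIN3, had 15.1 and 14.7 CPM in ein2 lhp1, against 42.3 and 44.0 CPM in lhp1, and fell by 1.54 ± 0.096 (adjusted p = 4.02e-23). Its partner EBF1 went the other way, with 126 and 114 CPM in ein2 lhp1, against 83.1 and 80.2 CPM in lhp1, and rose by 0.55 ± 0.055 (adjusted p = 1.25e-13). The F-box pair changed in opposite directions, and neither gene's groups overlapped, as held for 64.5% of all genes. ERS1, a receptor of the same subfamily as ETR1, fell by 1.25 ± 0.082 and ARGOS, a repressor of ethylene sensitivity, by 1.85 ± 0.20. CTR1 fell by 0.49 ± 0.08, while EIN3 itself had 110 and 114 CPM in ein2 lhp1, against 109 and 118 CPM in lhp1, and was not called (adjusted p = 0.815). The receptor ETR1 had 23.8 and 23.2 CPM in ein2 lhp1, against 26.7 and 28.7 CPM in lhp1, and its call (adjusted p = 0.0231) was lost without either ein2 lhp1 library (adjusted p = 0.0608 and 0.127), without lhp1 replicate 2 (0.174) and with the length trend removed (0.37). EIL2 had 0 counts in both ein2 lhp1 libraries, against 0.511 and 0.332 CPM in lhp1, and its call was lost without ein2 lhp1 replicate 2 (adjusted p = 0.0515).

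**Figure D2:**
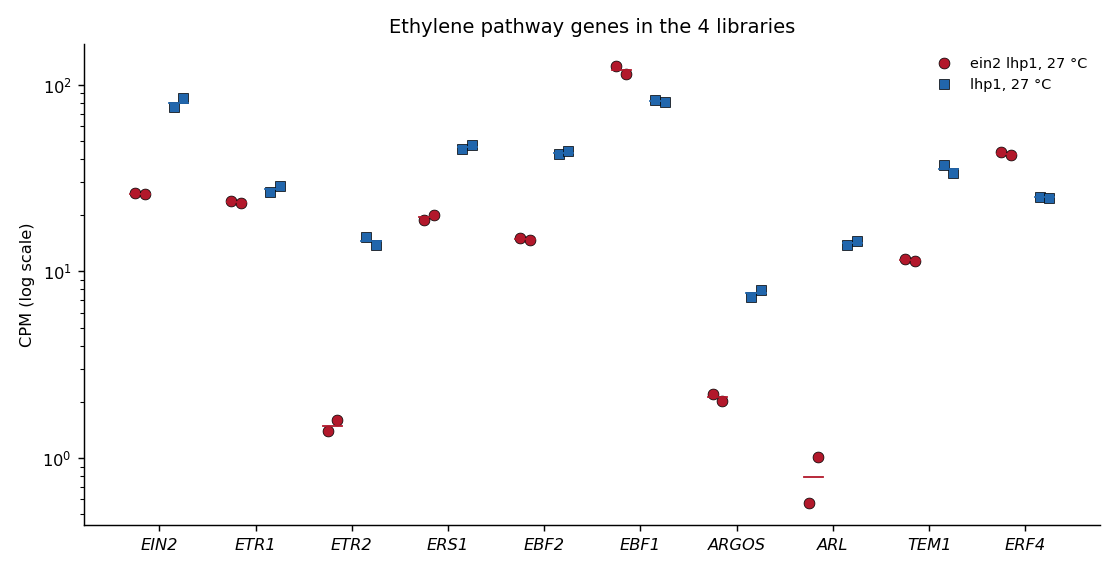
Points are the 2 libraries of each group for 10 ethylene pathway genes, with ein2 lhp1 as red circles at the left and lhp1 as blue squares at the right of each gene. The vertical axis is CPM on a log scale and short lines are group means. ETR2 and ARL are farthest apart, and EBF1 and ERF4 are the genes shown that are higher in ein2 lhp1.

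Among ERF and EDF transcription factors, which act in the ethylene output below EIN3, 14 of 18 genes passed the filter on low counts. Of these 6 fell, 1 rose and 7 were not called, with a median of -0.91. TEM1 (EDF1), a B3-domain repressor of flowering, had 11.7 and 11.4 CPM in ein2 lhp1, against 37.1 and 33.8 CPM in lhp1, and fell by 1.62 ± 0.097 (adjusted p = 3.01e-24). EDF3 fell by 1.60 ± 0.25, RAV1 (EDF4) by 1.21 ± 0.11 and RAV2 (EDF2) by 0.93 ± 0.078, so all 4 genes of the EDF group were lower. The repressor ERF4 was the member that rose, with 43.3 and 42.0 CPM in ein2 lhp1, against 25.0 and 24.8 CPM in lhp1.

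Ethylene synthesis genes changed in both directions. ACC oxidases carry out the last step, and the ACC oxidase gene AT1G77330 had 25.0 and 23.7 CPM in ein2 lhp1, against 45.0 and 45.0 CPM in lhp1, a fall of 0.89 ± 0.081 (adjusted p = 2.86e-15). ACO1 fell by 0.95 ± 0.18 and ACO4 (EFE) by 0.25 ± 0.041. ACC synthases make the precursor, and ACS8 had 3.16 and 3.47 CPM in ein2 lhp1, against 0.639 and 1.06 CPM in lhp1, a rise of 2.02 ± 0.27 (adjusted p = 3.76e-09). ACS4 likewise rose by 2.28 ± 0.41. Of the 12 synthesis genes tested, 3 rose, 5 fell and 4 were not called, and the called ones included ACS6 and ACS7, whose calls were fragile. That of ACS6 was lost without ein2 lhp1 replicate 1 (adjusted p = 0.117) or lhp1 replicate 1 (0.139), and that of ACS7 without any 1 of the 4 libraries (0.0553 to 0.24).

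Seed genes had the highest median change of the 21 lists. Storage globulins, oleosins of oil bodies and late embryogenesis abundant proteins accumulate in the maturing seed under the factors ABI3, FUS3, LEC1 and LEC2 and abscisic acid (ABA), and are normally shut off after germination. The list of 21 held such genes, these factors and the enzyme genes ICL, MLS and PCK1. Of the 21 listed, 19 were tested, 14 rose, 0 fell and 5 were not called, with a median of 1.75. The small rise of MLS was not called by edgeR from the 4 libraries alone (0.10, adjusted p = 0.0595) or with no filter on low counts (0.10, adjusted p = 0.065). Without ein2 lhp1 replicate 2, 1 gene was called lower. LEC1 had 0 counts in all 4 libraries and LEC2 did not pass the filter. Upstream sequences of 2 of these genes are printed, at chr3:19214472-19214721 (plus strand) for EM1 and chr5:17758337-17758586 (minus strand) for CRA1, again 250 bases from RefSeq TAIR10.1 in gene direction. Capitals mark matches on either strand to the ABA response element core and to the RY element, which is known as the site of the B3 factor ABI3. The ABA core is ACGTG and reads CACGT on the other strand, so that a palindromic G-box counts as a match on both. For the RY element the letters are CATGCA, which read TGCATG on the other strand.
EM1: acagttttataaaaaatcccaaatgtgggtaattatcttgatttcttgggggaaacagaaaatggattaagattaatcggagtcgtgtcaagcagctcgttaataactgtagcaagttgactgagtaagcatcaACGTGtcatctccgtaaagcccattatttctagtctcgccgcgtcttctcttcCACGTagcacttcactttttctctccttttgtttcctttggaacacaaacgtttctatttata
CRA1: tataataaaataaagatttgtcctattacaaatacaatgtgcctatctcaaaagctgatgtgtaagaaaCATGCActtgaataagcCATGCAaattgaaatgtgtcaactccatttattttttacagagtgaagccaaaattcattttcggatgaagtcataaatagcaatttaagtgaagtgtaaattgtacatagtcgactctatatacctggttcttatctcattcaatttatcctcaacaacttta
EM1 held 2 ABA cores and 0 RY elements, while CRA1 held 2 RY elements and 0 ABA cores. Over all promoters 22.9% held an ABA core and 8.45% an RY element. Of the 14 seed genes that rose, 9 held an ABA core and 7 an RY element, and of all 21 members 12 and 11 did.

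EM1, a late embryogenesis abundant protein, had 119 and 122 CPM in ein2 lhp1, against 3.28 and 3.45 CPM in lhp1, and rose by 5.16 ± 0.11 (adjusted p = 1.85e-51). OLEO2, an oleosin, had 320 and 298 CPM in ein2 lhp1, against 16.0 and 16.4 CPM in lhp1, and rose by 4.26 ± 0.061 (adjusted p = 6.57e-62). CRA1, a storage globulin, had 127 and 139 CPM in ein2 lhp1, against 9.07 and 9.77 CPM in lhp1, and rose by 3.83 ± 0.081 (adjusted p = 9.21e-52). The ein2 lhp1 libraries were the high ones in all 3, where groups did not overlap in 64.5% of all genes. For EM1, one of the 10 largest increases, groups that do not overlap were a condition of that choice. OLEO1 rose by 3.79 ± 0.098, PER1, a peroxiredoxin of the seed, by 3.45 ± 0.061 and EM6 (GEA6) by 3.30 ± 0.087. The master regulator ABI3 had 21.0 and 17.7 CPM in ein2 lhp1, against 6.45 and 8.44 CPM in lhp1, and rose by 1.39 ± 0.14 (adjusted p = 3.88e-13). The storage albumins SESA1, SESA3 and SESA4 and the globulin CRU2 were under 1 CPM in each of the 4 libraries and were not called. Albumin genes are near-identical copies, so reads may be split among them.

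Many ABA-responsive genes rose as well. Of 26 genes for ABA synthesis, signalling and response, 15 rose, 2 fell and 9 were not called, with a median of 0.19, and 8 rose by at least 1 log2 unit. RAB18, a dehydrin, had 291 and 278 CPM in ein2 lhp1, against 27.4 and 26.5 CPM in lhp1, and rose by 3.40 ± 0.056 (adjusted p = 1.38e-58). RD29B (LTI65), a desiccation-response protein, had 321 and 331 CPM in ein2 lhp1, against 43.2 and 42.5 CPM in lhp1, and rose by 2.93 ± 0.047 (adjusted p = 3.77e-59). The ein2 lhp1 libraries were the high ones in both, where groups did not overlap in 64.5% of all genes. PP2C phosphatases that dampen ABA signalling rose too, HAI3 by 4.50 ± 0.27, AHG1 by 3.80 ± 0.31, HAI2 by 2.15 ± 0.19 and HAI1 by 2.00 ± 0.15. ABI5, the bZIP factor that acts with ABI3 in seeds, rose by 1.74 ± 0.14 and the synthesis enzyme NCED3 by 0.59 ± 0.12. ABI1, another PP2C, fell by 0.35 ± 0.06, and RD26, a NAC factor, by 0.50 ± 0.11. The catabolic genes CYP707A1 and CYP707A3 were not called (adjusted p = 0.753 and 0.947).

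**Figure D3:**
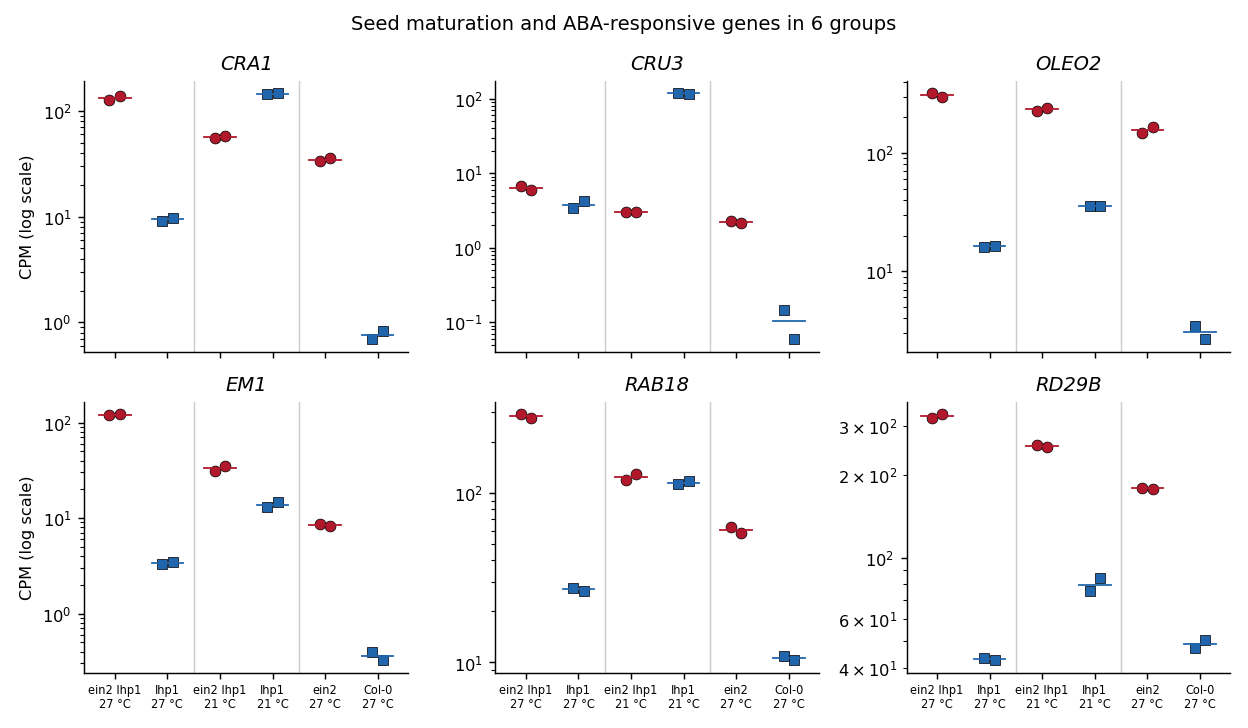
Each panel gives CPM on a log scale for 1 gene in 6 groups of 2 libraries each, with lines at group means, red circles for genotypes carrying ein2-5 and blue squares for their EIN2 controls. In each pair at 27 °C the ein2 libraries are the higher ones. At 21 °C CRA1 and CRU3 are instead higher in lhp1.

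The effect of EIN2 loss on seed genes differed between temperatures. CRA1 had 55.9 and 57.5 CPM in ein2 lhp1 at 21 °C, against 144 and 147 CPM in lhp1 at 21 °C, the reverse of the order at 27 °C. The effect of EIN2 loss on CRA1 was 5.19 log2 units greater at 27 °C than at 21 °C (adjusted p = 1.07e-51, edgeR test of the difference of effects). CRU3 had 6.70 and 5.86 CPM in ein2 lhp1 at 27 °C, against 3.41 and 4.19 CPM in lhp1 at 27 °C, and 3.03 and 3.00 CPM in ein2 lhp1 at 21 °C, against 118 and 117 CPM in lhp1 at 21 °C. The effect on CRU3 thus differed by 6.02 log2 units (adjusted p = 5.2e-37). CRA1 and CRU3 are members of the seed list, but both also led this test by p-value. Small p-values were thus a condition of that choice. Over all genes, 3332 (15.2%) had an effect of EIN2 loss that differed between temperatures, 1547 (7.04%) upward and 1785 (8.12%) downward at 27 °C. Among the 19 seed genes tested 16 differed upward and 0 downward, with a median difference of 3.31, and among the 26 ABA genes 16 upward and 0 downward, with a median of 0.47. For OLEO2 the direction was the same at both temperatures, since EIN2 loss raised it by 2.72 at 21 °C and 4.26 at 27 °C. The sum of the 5 seed markers (CRA1, CRU3, SESA4, OLEO1 and EM6) was 303 and 304 CPM in ein2 lhp1 at 27 °C, against 26.8 and 30.2 CPM in lhp1 at 27 °C, and 149 and 155 CPM in ein2 lhp1 at 21 °C, against 318 and 324 CPM in lhp1 at 21 °C. The part of these markers in the result was not tested.

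Cold-regulated genes, many of which are also known to respond to ABA, were in part higher. Of 14 tested 7 rose, 2 fell and 5 were not called, with a median of 0.60. KIN1 had 97.0 and 88.7 CPM in ein2 lhp1, against 21.9 and 20.9 CPM in lhp1, a rise of 2.11 ± 0.069 (adjusted p = 9.9e-40). COR15A, a chloroplast protein of freezing tolerance, rose by 1.46 ± 0.097 and KIN2 by 1.26 ± 0.039. KIN1 and KIN2 are close copies, so their reads may be shared. The zinc finger genes RHL41 (ZAT12) and STZ (ZAT10) fell by 0.74 ± 0.17 and 0.61 ± 0.16.

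Most photosynthesis genes rose. Of 23 light-harvesting, Rubisco small subunit and light-response genes tested, 19 rose, 3 fell and 1 was not called, with a median of 0.84. LHB1B1, a light-harvesting protein of photosystem II, had 6149 and 5864 CPM in ein2 lhp1, against 2429 and 2429 CPM in lhp1, and rose by 1.31 ± 0.022 (adjusted p = 3.61e-58). CAB1 (LHCB1.3) had 27474 and 26538 CPM in ein2 lhp1, against 13689 and 13672 CPM in lhp1, and rose by 0.98 ± 0.015 (adjusted p = 3.02e-60). RBCS1A, a Rubisco small subunit, had 27728 and 26584 CPM in ein2 lhp1, against 15051 and 15121 CPM in lhp1, and rose by 0.85 ± 0.015 (adjusted p = 1.25e-57). The groups did not overlap in these 3, as in 64.5% of all genes. Copies within the LHCB1 and RBCS families are nearly identical, so the split among them is uncertain. Those that fell were the stress-induced ELIP2 (by 1.2 ± 0.11), ELIP1 (by 0.69 ± 0.078) and the light-response factor HYH (by 0.77 ± 0.12), while HY5 was not called (adjusted p = 0.702). The sum of the 4 green-shoot markers was 69142 and 66632 CPM in ein2 lhp1, against 36689 and 36764 CPM in lhp1. That of the 5 root markers (PYK10, COBL9, EXPA7, PRP3 and IRT1) was 4085 and 4026 CPM in ein2 lhp1, against 3461 and 3492 CPM in lhp1. These root markers did not move together, since PYK10 rose while EXPA7 and PRP3 fell. The 13 root hair genes summed to 217 and 212 CPM in ein2 lhp1, against 300 and 301 CPM in lhp1. Some of these markers are members of the lists, and their part in the result was not tested. With the length trend removed, 19 photosynthesis genes rose and 3 fell, with a median of 0.76.

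For photosynthesis genes the effect of EIN2 loss differed between the lhp1 and Col-0 backgrounds. The light-harvesting gene LHCB2.3 had 1227 and 1210 CPM in ein2 lhp1 and 610 and 607 CPM in ein2, against 463 and 456 CPM in lhp1 and 921 and 910 CPM in Col-0, all at 27 °C. EIN2 loss thus raised it by 1.41 ± 0.026 in lhp1 and changed it by -0.59 in Col-0, a difference of 2.00 log2 units (adjusted p = 9.99e-55). LHCB2.3 is not a member of the photosynthesis list and was named for its small p-value in this same test. Over all genes, 5984 (27.2%) had an effect of EIN2 loss at 27 °C that differed between backgrounds, 2866 (13.0%) upward and 3118 (14.2%) downward in lhp1. Among the 23 photosynthesis genes 18 differed upward and 4 downward, with a median difference of 0.92. In Col-0 at 27 °C, 7 of them rose and 15 fell with EIN2 loss, with a median of -0.12, where 19.8% of all genes rose and 18.3% fell. Also outside the list, the effect on the aldolase FBA5 differed by 2.16 log2 units (adjusted p = 9.4e-52). That on the carbonic anhydrase CA1 differed by 1.32 (adjusted p = 3.69e-49). Both were likewise named for p-values among the smallest of this test.

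**Figure D4:**
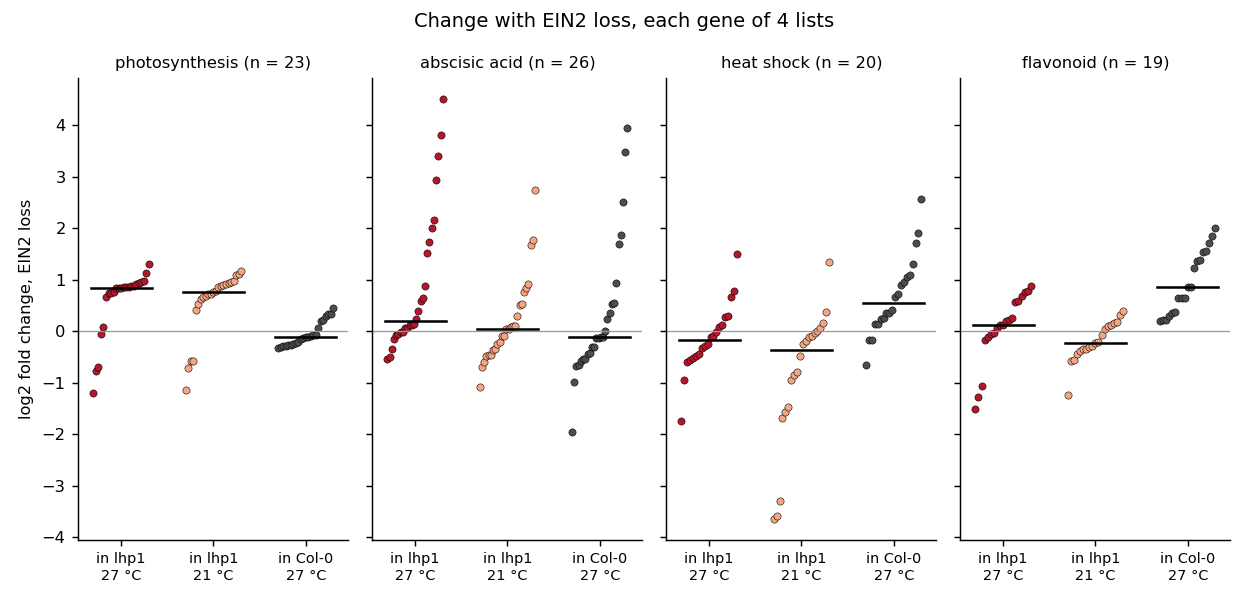
Points are the log2 fold changes with EIN2 loss of each tested gene in 4 lists, sorted within each column, for ein2 lhp1 over lhp1 at 27 °C and 21 °C and for ein2 over Col-0 at 27 °C. Black lines are medians. Photosynthesis medians are 0.84, 0.77 and -0.12 in that order, and heat shock and flavonoid medians are highest in Col-0, at 0.55 and 0.85.

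ABA, heat shock and flavonoid genes also differed between backgrounds. Among ABA genes 16 of 26 differed upward in lhp1 and 0 downward, with a median difference of 0.61. RAB18, for example, rose with EIN2 loss by 3.40 in lhp1 and by 2.50 in Col-0, a difference of 0.89 (adjusted p = 1.75e-13). Seed genes went the other way, with 8 of 19 differing downward and 1 upward. Levels in Col-0 were low, since 11 storage and oil body genes summed to 6.31 and 4.74 CPM there, against 231 and 244 CPM in ein2. Their sums were 36.1 and 38.4 CPM in lhp1 and 529 and 512 CPM in ein2 lhp1, all at 27 °C. OLEO2 rose by 4.26 in lhp1 and by 5.67 in Col-0 (difference -1.41, adjusted p = 5.09e-17), with 149 and 165 CPM in ein2, against 3.45 and 2.65 CPM in Col-0.

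Heat shock genes, molecular chaperones and their factors, changed in both directions in the lhp1 background at 27 °C. Of 20 tested 4 rose, 4 fell and 12 were not called, with a median of -0.18. These counts were near the shares over all genes, of which 18.6% were higher and 15.9% lower. The median was -0.09 without ein2 lhp1 replicate 1 and -0.08 without lhp1 replicate 2, and 6 fell without ein2 lhp1 replicate 2. At 21 °C 1 rose and 10 fell with EIN2 loss, with a median of -0.37, and the effect differed upward at 27 °C for 6 of the 20 and downward for 0. HSP90.1 had 54.3 and 50.0 CPM in ein2 lhp1, against 73.7 and 80.1 CPM in lhp1, and fell by 0.56 ± 0.07 (adjusted p = 2.84e-10). HSP70 had 281 and 276 CPM in ein2 lhp1, against 232 and 221 CPM in lhp1, and rose by 0.30 ± 0.04 (adjusted p = 5.73e-09). These chaperones changed in opposite directions, with groups that did not overlap, as in 64.5% of all genes. The small heat shock protein HSP17.6II fell by 0.95 ± 0.17 in lhp1 and rose by 2.57 in Col-0, a difference of -3.52 (adjusted p = 1.92e-22). In Col-0 at 27 °C 12 of the 20 rose and 1 fell with EIN2 loss, and 11 differed downward and 1 upward in lhp1.

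Flavonoid and anthocyanin genes rose less in lhp1 than in Col-0. Of 19 tested 9 rose, 2 fell and 8 were not called in lhp1, with a median of 0.13, while 15 rose and 0 fell in Col-0, with a median of 0.85. DFR, a dihydroflavonol reductase, had 15.5 and 16.5 CPM in ein2 lhp1, against 10.4 and 11.4 CPM in lhp1, a rise of 0.56 ± 0.11 (adjusted p = 3.04e-05). The rise of DFR in Col-0 was 2.01, so the effect differed by -1.45 (adjusted p = 1.48e-10). Without lhp1 replicate 1 the median in lhp1 was 0.24, and without any 1 of the 4 libraries 1 gene fell. In all, 12 of the 19 genes differed downward in lhp1 and 0 upward.

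Some growth genes that act in warmth rose. PIF4, a central factor of warm-temperature elongation, promotes auxin synthesis genes and SAUR genes of cell expansion. Of 25 PIF, auxin and elongation genes 13 rose, 3 fell and 9 were not called, with a median of 0.28. PIF4 had 106 and 102 CPM in ein2 lhp1, against 71.6 and 79.0 CPM in lhp1, and rose by 0.47 ± 0.05 (adjusted p = 1.4e-12). PIF3 had 15.6 and 17.0 CPM in ein2 lhp1, against 30.9 and 28.9 CPM in lhp1, and fell by 0.88 ± 0.093 (adjusted p = 1.33e-12). These factors changed in opposite directions, with groups that did not overlap, as in 64.5% of all genes. SAUR22 rose by 1.5 ± 0.18 and SAUR20 by 0.95 ± 0.11, although reads may be shared among the neighbouring SAUR19 to SAUR24 copies. Among auxin synthesis genes TAA1 fell by 0.42 ± 0.13 (adjusted p = 0.00541), and by 0.35 without ein2 lhp1 replicate 2. YUC9 rose by 1.06 ± 0.39, a call that edgeR lost from the 4 libraries alone (adjusted p = 0.0582). The auxin-response gene IAA19 rose by 0.71 ± 0.13, and EXPA8, an expansin of the cell wall, by 0.51 ± 0.046. EXPA8 fell by 1.27 with EIN2 loss in Col-0, so the effect differed by 1.78 log2 units (adjusted p = 1.72e-36).

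Root hair genes, which ethylene promotes, fell less in lhp1 than in Col-0. Of 13 tested 8 fell, 0 rose and 5 were not called, with a median of -0.37, and without ein2 lhp1 replicate 2 the number lower was 5. Without lhp1 replicate 1, 1 gene was higher and 7 were lower. The peroxidase RHS19 had 27.9 and 26.8 CPM in ein2 lhp1, against 49.3 and 50.2 CPM in lhp1, and fell by 0.87 ± 0.081 (adjusted p = 6.61e-15). The wall protein PRP3 had 66.4 and 63.4 CPM in ein2 lhp1, against 82.6 and 87.3 CPM in lhp1, and fell by 0.39 ± 0.062 (adjusted p = 3.12e-07). Both had lower values in every ein2 lhp1 library, where groups did not overlap in 64.5% of all genes. With EIN2 loss in Col-0 PRP3 fell by 1.01, and 7 of the 13 genes differed upward in lhp1 and 0 downward, with a median difference of 0.51. Against 21 °C in the same background 5 of the 13 differed upward and 0 downward.

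Sugar starvation and hypoxia genes were mostly lower. Of 14 dark-inducible and starvation genes 11 fell, 1 rose and 2 were not called, with a median of -0.51. DIN2, a beta-glucosidase, had 0.383 and 0.289 CPM in ein2 lhp1, against 9.37 and 8.44 CPM in lhp1, and fell by 4.74 ± 0.36 (adjusted p = 5.6e-19). DIN10, a raffinose synthase family protein, had 102 and 104 CPM in ein2 lhp1, against 215 and 205 CPM in lhp1, a fall of 1.03 ± 0.047 (adjusted p = 5.21e-31). The exception was ASN1, asparagine synthetase, which rose by 0.80 ± 0.10 in lhp1 and fell by 2.16 in Col-0, a difference of 2.96 (adjusted p = 1.01e-28). Of 13 hypoxia genes 7 fell, 1 rose and 5 were not called, with a median of -0.50. HB1, the non-symbiotic haemoglobin PGB1, had 2.01 and 2.03 CPM in ein2 lhp1, against 13.1 and 13.1 CPM in lhp1, and fell by 2.69 ± 0.18 (adjusted p = 2.83e-21). The fermentation enzyme ADH1 rose, with 48.2 and 46.6 CPM in ein2 lhp1, against 20.7 and 19.3 CPM in lhp1.

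Genes known from defence were among the largest falls, but the plant thionin gene AT1G66100 was among the 10 largest increases, also chosen for groups that do not overlap. AT1G66100 had 9.47 and 10.5 CPM in ein2 lhp1, against 0.213 and 0.332 CPM in lhp1, and rose by 5.25 ± 0.24 (adjusted p = 3.7e-31). It averaged 7.88 CPM in Col-0 and 6.70 CPM in ein2 at 27 °C, where EIN2 loss was not called (adjusted p = 0.204). The low level was thus that of lhp1. EARLI1 had 1.39 and 1.01 CPM in ein2 lhp1, against 77.5 and 82.1 CPM in lhp1, and fell by 6.08 ± 0.15 (adjusted p = 3.69e-48). Its neighbour AZI1, a lipid-transfer-like protein of systemic resistance, had 3.92 and 4.05 CPM in ein2 lhp1, against 122 and 124 CPM in lhp1, and fell by 4.94 ± 0.092 (adjusted p = 2.1e-55). FLS2, the receptor kinase for bacterial flagellin, had 0.287 and 0.289 CPM in ein2 lhp1, against 11.5 and 10.7 CPM in lhp1, and fell by 5.25 ± 0.30 (adjusted p = 1.54e-25). These 3 are among the 10 largest decreases, chosen for the size of the fall and for groups that do not overlap. With EIN2 loss in Col-0 at 27 °C they fell by 0.92, 1.97 and 2.61 in that order, and the falls in lhp1 were larger by 5.16, 2.97 and 2.64 log2 units (adjusted p = 6.12e-36, 3.65e-33 and 3.22e-07). Among the salicylate list 1 of 10 tested genes rose and 2 fell, and PR5, one that fell, had 0 counts in both ein2 lhp1 libraries, against 0.128 and 0.199 CPM in lhp1. Its call was lost without ein2 lhp1 replicate 1 (adjusted p = 0.0589) or replicate 2 (0.0927). The number lower in the list was 1 without ein2 lhp1 replicate 1 or lhp1 replicate 1 and 0 without ein2 lhp1 replicate 2. In the list of defence genes that jasmonate and ethylene induce, 2 of 7 passed the filter, with the chitinase HCHIB higher by 0.45 ± 0.069 and PR4 lower by 0.46 ± 0.06.

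All ER body genes and some jasmonate genes rose. Of 15 jasmonate genes 7 rose, 0 fell and 8 were not called, with a median of 0.33. AOS, allene oxide synthase of jasmonate synthesis, had 125 and 120 CPM in ein2 lhp1, against 41.7 and 36.9 CPM in lhp1, and rose by 1.63 ± 0.056 (adjusted p = 1.31e-38). VSP2, a vegetative storage protein induced by jasmonate, rose by 1.66 ± 0.072 and LOX2, a lipoxygenase, by 1.49 ± 0.061. Without ein2 lhp1 replicate 2 the number higher was 5 and the median 0.54, and without lhp1 replicate 1 they were 5 and 0.67, with 1 gene lower. All 7 ER body genes, which make and hold beta-glucosidases in defensive bodies of the endoplasmic reticulum, rose by 0.19 to 0.72, and their factor NAI1 had 70.7 and 66.8 CPM in ein2 lhp1, against 40.3 and 43.3 CPM in lhp1 (0.72 ± 0.066, adjusted p = 2.38e-15).

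Flowering, chromatin and iron genes showed few or unstable calls, and those of clock genes changed with the length trend. Of 20 floral and flowering genes tested 5 rose, 2 fell and 13 were not called, with a median of -0.02 that lay between -0.17 and 0.04 when a library was left out. The number lower was 1 without either ein2 lhp1 library or lhp1 replicate 2. The FLC relatives MAF5 and MAF4, repressors of flowering, rose by 2.00 ± 0.37 and 1.77 ± 0.25, SVP by 0.50 ± 0.065, and the organ identity gene PI fell by 0.91 ± 0.20. MAF4 stood at 3.64 and 5.43 CPM in ein2 lhp1, against 1.45 and 1.2 CPM in lhp1. Of 24 Polycomb, INO80, SWR1 and H2A.Z genes 4 rose, 7 fell and 13 were not called, none by 1 log2 unit, and without ein2 lhp1 replicate 1 the numbers were 2 and 1 and without lhp1 replicate 1 they were 2 and 5. The H2A.Z gene HTA9 rose by 0.39 ± 0.049 and the remodeller INO80 fell by 0.48 ± 0.081. Of 13 clock genes 2 rose and 6 fell, with 3 of each when the length trend was removed. Of 19 iron genes 7 rose, 0 fell and 12 were not called, but 3 rose without ein2 lhp1 replicate 1 and 4 without lhp1 replicate 1.

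Largest increases outside the lists, among genes of at least 2 CPM on average, included AT1G24580, a RING/U-box protein, with 178 and 172 CPM in ein2 lhp1, against 4.26 and 3.99 CPM in lhp1 (5.40 ± 0.086, adjusted p = 2.51e-59). AT5G55410, a lipid-transfer protein family member, had 39.9 and 36.3 CPM in ein2 lhp1, against 0.596 and 0.465 CPM in lhp1. PAP85, a cupin-family seed protein, had 23.9 and 23.0 CPM in ein2 lhp1, against 0.724 and 0.133 CPM in lhp1. The glycine-rich protein gene AT5G35660 and the metallothionein gene AtMT4b were also among them, and separation of the groups was a condition of being named here. The pseudogene AT5G35935 rose most, by 6.61 ± 0.23 (adjusted p = 9.64e-38), with 18.9 and 17.3 CPM in ein2 lhp1, against 0.255 and 0.0664 CPM in lhp1. It averaged 16.9 CPM in ein2 and 16.9 CPM in Col-0 at 27 °C but 2.3 CPM in ein3 eil1 at 27 °C. Largest decreases further held the polygalacturonase PGAZAT, the basic helix-loop-helix gene AT2G43140, the RING/U-box gene AT3G20395, the cupin gene AT5G38940 and XTH26, a xyloglucan transferase of the wall, by 3.46 to 4.39 log2 units.

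Comparisons that shared no library with the one described were set beside it gene by gene. Of the 4081 genes higher in ein2 lhp1 against lhp1 at 27 °C, 2573 were also higher at 21 °C in the same contrast (63.0% of those at 27 °C and 60.7% of those at 21 °C) and 1917 were higher in ein2 against Col-0 at 27 °C (47.0% and 44.1%). Of the 3493 lower genes, 1783 were lower at 21 °C (51.0% and 48.7%) and 1297 in ein2 (37.1% and 32.2%). Over all genes tested, 35.9% were called at 21 °C (19.3% higher and 16.6% lower), 38.1% in ein2 and 36.6% in ein3 eil1. Across 17503 genes of at least 2 CPM, the log2 fold changes correlated at r = 0.68 with those at 21 °C, 0.54 with ein2 and 0.56 with ein3 eil1 against Col-0 at 27 °C. These are descriptions across genes, which are not independent replicates. Opposite calls were made for 620 of the higher genes (15.2%) and 495 of the lower genes (14.2%) in ein2 against Col-0.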

How the data were processed

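Gene counts were deposited by the authors as 5 tables, 1 for each genotype, of 36799 genes and 4 libraries. Per the file headers they were made with featureCounts 2.0.3 on Araport11 genes, each mate of a pair counted singly and without a strand option, and 78.2% to 83.6% of counts between 5 and 50 were even. The submitters' processing notes name FastQC, Trim Galore, STAR, featureCounts, Subread 2.0.1, DESeq2 and TAIR10. Overlapping and antisense genes, and near-identical copies, are therefore uncertain. Libraries held 24153109 to 47566071 counts. Columns were matched by genotype, temperature and replicate, where column names read 22 and 28 and the labels 21 and 27 °C.

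All 20 libraries entered 1 model of 10 group means in R 4.3.3 with edgeR 4.0.16 (TMM, filterByExpr, quasi-likelihood F test, Benjamini-Hochberg adjustment over 21987 genes), checked on simulated counts. The temperature and background differences were tested as contrasts of effects in the same fit. DESeq2 1.42.0, other scalings and filters, a length trend and left-out libraries were alternatives. Fold changes are tested on counts, and CPM use TMM-scaled library sizes. Genes at 0 in a group have no bounded fold change.

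Members and the 21 gene lists (368 genes, 340 tested) were chosen with earlier results of these data known. Named genes are EIN2 and LHP1, the 10 largest increases and 10 largest decreases of at least 2 CPM whose groups stood apart, 4 genes leading each difference test by p-value, and up to 6 members of each list with any whose role the text needs. Gene names and promoters came from RefSeq TAIR10.1. Deposited tables of temperature comparisons within a genotype were not used here.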

Additional observations from a re-analysis of the deposited data

Results flagged for a closer look

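The effect of EIN2 loss in lhp1 differed between 27 °C and 21 °C for 3332 genes, by edgeR's test of the difference itself, and its effect at 27 °C differed between the lhp1 and Col-0 backgrounds for 5984 genes. The values below are log2 differences of effects that passed this test.

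Between temperatures, the effect was more positive at 27 °C for seed-related genes, by 6.06 for PAP85, 6.02 for CRU3, 5.19 for CRA1 and 3.91 for EM1, and by 3.28 for the dehydrin RAB18. It was also more positive for AtMT4b (5.33), AT1G54860 (5.01), AT5G55410 (4.3), AT5G35660 (4.12), XTH26 (2.63), AT1G66100 (2.38) and AT1G24580 (1.6). Smaller differences were those of FBA5 (0.68), TFL2 (0.63), LHB1B1 (0.18) and CA1 (0.14). The effect was more negative at 27 °C for PGAZAT (-2.91), EARLI1 (-2.72) and AZI1 (-1.84).

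Between backgrounds, the effect was more positive in lhp1 for PAP85 (8.1), AT5G35935 (6.61), AT1G66100 (5.48) and XTH26 (3.81). The photosynthesis-related genes FBA5 (2.16), LHCB2.3 (2.0), LHB1B1 (1.59) and CA1 (1.32) and the dehydrin RAB18 (0.89) differed in the same direction. It was more negative in lhp1 for EARLI1 (-5.16), AT5G38940 (-3.63), CRU3 (-3.57), AZI1 (-2.97), FLS2 (-2.64), AT2G43140 (-1.78), CRA1 (-1.69) and ARL (-0.93). CRU3 stood at 0.148 and 0.0589 CPM in Col-0 at 27 °C, so its difference rests on low counts there.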

How the results depend on the processing

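The 7574 genes called between ein2 lhp1 and lhp1 became 7575 with DESeq2's size factors, 7441 with its Wald test, 7330 with no filter on low counts, 6880 from the 4 libraries alone and 6608 with the length trend removed. Leaving out each library in turn gave 5809 to 6414. Calls of at least 1 log2 unit, 1109 in all, numbered 1011 to 1107 when a library was left out. EIN2 itself stayed between -1.69 and -1.54 when a library was left out and was -1.42 with the length trend removed. Left-out libraries gave 2607 to 2931 genes for the temperature difference, against 3332, and 5090 to 5429 for the background difference, against 5984. Replicate numbers did not pair the samples, since deviations of same-numbered libraries correlated at r = -0.02 over 11664 genes. With a replicate block, which rests on a shared number alone, 7549 genes were called, 1104 of them by at least 1 log2 unit, EIN2 was -1.61, and 3337 and 5976 genes differed between temperatures and backgrounds. Of 4074 values of single genes under alternatives, 3908 kept their side of the threshold, 136 lost the call and 30 gained it. No value called in either setting changed sign, while 107 values of 61 results not called in either setting did. Calls of low genes are limited by depth.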
